A study of Mus musculus with 4 samples.

Results

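Oligodendrocyte precursor cells (OPCs) of the ventromedial prefrontal cortex (vmPFC) were picked from single-cell libraries by the raw counts of a few genes. A cell was called an OPC when it carried at least 3 UMIs (unique molecular identifiers, each standing for 1 captured transcript) of Pdgfra and Cspg4 together and at least 1 UMI of Olig1. It also had to hold fewer than 5 UMIs of Gpr17, Enpp6 and Bmp4 together, and at most 2 UMIs each of the sums Mog and Mag, Slc17a7 with Gad1 and Gad2, Dcn alone and Cldn5 alone. This gate found 1148 OPCs among 11707 quality-filtered cells that the authors had not listed as excitatory neurons, and among 21263 filtered cells in the whole series. Because the gate read these counts, the levels of the gate genes are described below with no test, and genes that follow a gate gene from cell to cell are partly set by it.

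The mice were male C57BL/6, injected at 8 weeks of age with retrograde viruses that carry EGFP and a barcode, into 5 targets of this cortex. The unsorted libraries, called libraries 1, 2 and 3 here, are labelled as 1 mouse each, and a further library held cells sorted for EGFP from 3 pooled mice. Every animal carried the viruses and no uninjected control was analysed, and living slices were kept in blockers of glutamate receptors before digestion with papain and a second protease. No library was enriched for OPCs, so they were read as they came out of the dissociated prelimbic and infralimbic tissue.

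OPCs are the dividing glia that the central nervous system keeps in adulthood and from which new myelinating oligodendrocytes arise. They depend on platelet-derived growth factor through its receptor Pdgfra, carry the NG2 proteoglycan made from Cspg4, and receive synapses from neurons. On the way to a myelinating cell they lose Pdgfra, pass through a stage marked by Gpr17, Enpp6 and Bmp4, and then turn on the genes of compact myelin.

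The gate gave 430, 389 and 329 OPCs in the 3 unsorted libraries. They made up 10.2%, 10.1% and 8.97% of the filtered cells absent from the neuron list, a mean of 9.78% ± 0.70 (SD, n = 3 libraries). Their 95% Wilson intervals reached from 8.09% to 11.2% and overlapped, and a chi-square test over the libraries, which treats cells as the counted units, gave p = 0.122. The same gate found no OPC among 188 such cells of the sorted library, which allows a share of up to 1.60% by the limit of 3 counts (the Wilson upper bound is 2.00%). Intervals and limits of this kind cover counting error only.

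OPCs were shallow cells next to neurons. Their median depth lay between 3900 and 4028 UMIs over the libraries, against medians of 21344 to 23213 UMIs in the listed neurons, and their summed counts came to 1671555, 1557868 and 1370835 UMIs. Over 10396 genes the biological coefficient of variation of the 3 OPC sums was 0.048, so libraries differed little. Markers of microglia were an exception, and so were those of pericytes and smooth muscle. The summed level of microglial markers in OPCs ranged from 89.9 to 980 CPM (counts of a gene over all counts of the summed cells, scaled to a common total). That of pericyte and smooth muscle markers ranged from 7.29 to 128 CPM. C1qa, a complement gene of microglia, stood at 163, 6.42 and 70.0 CPM in libraries 1, 2 and 3. There were 24, 6 and 13 OPCs with at least 3 microglial UMIs. Zfp36, which appears below, lay in the same order over the libraries. Pairs of libraries shared 5 to 30 cell barcodes, and no shared barcode was an OPC in both.

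The gate genes were present at the levels the gate asks for. Pdgfra (chromosome 5, 75152292 to 75198215, GRCm38) stood at 1818, 1786 and 1821 CPM, and the median OPC held 7 UMIs of it. Cspg4 (chromosome 9, 56865033 to 56899870) averaged 866 ± 54.8 CPM, and Olig1 (chromosome 16, 91269772 to 91271933), a basic helix-loop-helix factor of the whole lineage, averaged 3741 ± 93.9 CPM (SD, n = 3 libraries for both). Gpr17, the receptor that marks cells on the way to differentiation, was seen in 86.9% ± 1.30 of OPCs and at 517 ± 13.2 CPM, although the gate caps it. Enpp6 was nearly absent, with 1 UMI in all 1148 cells, and Bmp4 was seen in 4.15% ± 1.61 of them. The upper edge of the gate cut through a single hump of cells. Among cells with at least 3 Pdgfra and Cspg4 UMIs, 204 held 4 UMIs of Gpr17, Enpp6 and Bmp4 and 154 held 5, and these neighbours had Ptprz1 at 3603 and 3701 CPM. At the lower edge, 38 OPCs held 3 UMIs of Pdgfra and Cspg4 and 28 cells outside held 2.

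**Figure D1:**
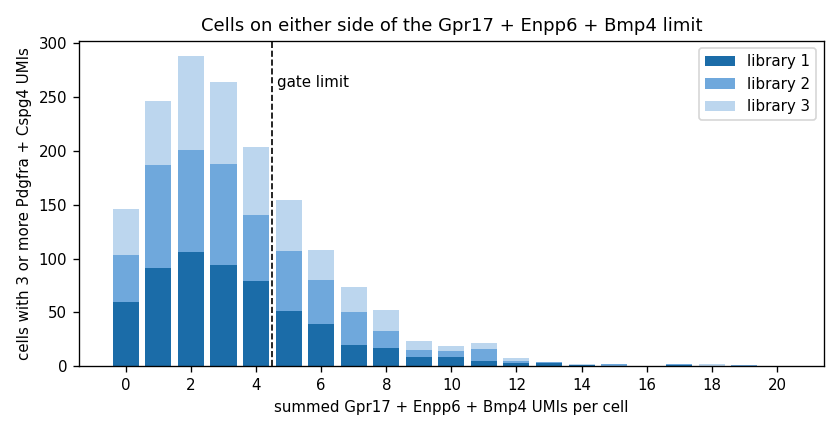
Number of cells (vertical axis) by their summed Gpr17, Enpp6 and Bmp4 UMIs (horizontal axis), among cells that met the other limits of the gate, stacked by library. The dashed line marks the limit of the gate, with 204 cells at 4 UMIs and 154 at 5 on its sides and no gap between them.

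OPCs were set against 3 kinds of cells from the same libraries: all 10559 other cells absent from the neuron list, 1676 mature oligodendrocytes (at least 3 UMIs of Mog and Mag) and 460 astrocytes (at least 3 UMIs of Aqp4 and Gja1). The UMIs of each kind of cell were added up within a library, and edgeR compared these sums with the library as a block, so each p-value measures the spread between 3 libraries, labelled as 1 mouse each. A gene was called at an adjusted p (Benjamini-Hochberg) under 0.05 and a log2 difference of at least 1 in size. Against all other cells, 1735 of 14921 genes (11.6%) were higher in OPCs and 3544 (23.8%) lower. Against mature oligodendrocytes, 2729 of 11390 genes (24.0%) were higher and 1798 (15.8%) lower. Against astrocytes, 1706 of 10401 genes (16.4%) were higher and 1488 (14.3%) lower. Of 10122 genes tested in all 3 comparisons, 507 (5.01%) were higher in OPCs each time and 208 (2.05%) lower each time. The median log2 difference over all genes was −0.08, 0.02 and 0.02 in the 3 comparisons on the TMM scale used for the tests, and the lists below are read against those values and those shares. TMM moved the signed differences downward relative to plain CPM. On library sizes without TMM, an alternative chosen after seeing the data, the medians were 0.14, 0.68 and 0.30, and the split of calls moved to 2303 higher and 3104 lower, 4307 higher and 927 lower, and 2230 higher and 1188 lower. For genes higher in OPCs a fitted difference can therefore be smaller than the ratio of the CPM levels printed beside it. For genes lower in OPCs it can be larger in size than that ratio. Both apply mostly against mature oligodendrocytes.

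The genes that stood furthest above all other cells ran from Gsx1 and Fam19a4, found in part of the OPCs, to Matn4 and Fabp7, found in nearly all of them (96.8% and 94.9%). Gsx1, a homeobox factor of the embryonic ventral forebrain (chromosome 5, 147188696 to 147190947, plus strand), stood at 71.2, 84.1 and 68.6 CPM in OPCs and at 2.65, 2.35 and 3.12 CPM in the other cells, with a log2 difference of 4.57 ± 0.15 (SE). It was seen in 25.0% of OPCs and had no UMI in mature oligodendrocytes or astrocytes, which makes it at least 216-fold and at least 39.7-fold higher in OPCs than in each of them. Fam19a4, a secreted chemokine-like protein, stood at 73.0, 69.3 and 63.5 CPM and also had no UMI in either group. The others with the largest log2 differences were Sapcd2 (4.36), Tmem255b (4.29), the retinoid-binding Rlbp1 (4.28), the matrix protein Matn4 (4.22), the extracellular Emid1 (4.15), the Wnt receptor Fzd9 (4.12), the receptor adaptor Shc4 (4.10) and the fatty acid-binding Fabp7 (4.06). All of them were higher in OPCs than in the other cells in 3 of 3 libraries. The rule for named genes required this, so it is no separate support. These other cells include 527 cells with more Gpr17, described further on, that held 1282 of 1626, 1366 of 1775 and 1274 of 1696 of the group's Pdgfra UMIs in libraries 1, 2 and 3. Without them, an alternative chosen after seeing the data, the log2 differences of these 10 genes were larger, at 5.24 for Fabp7, 6.10 for Matn4, 6.56 for Gsx1 and 6.78 for Tmem255b, and 1860 genes were higher and 3597 lower. The counts called in each list below then moved by at most 2 genes in either direction.

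Transcription factors of the lineage separated OPCs from other glia in different ways. Of 20 listed factors, 12 were higher and 2 lower than in all other cells (median log2 difference 1.73), 11 were higher and 4 lower than in mature oligodendrocytes (2.32), and 9 of 19 tested were higher and 3 lower than in astrocytes (0.67). Olig2, which specifies the lineage, stood at 1517, 1481 and 1436 CPM in OPCs, at 293, 306 and 266 in mature oligodendrocytes and at 58.2, 83.3 and 61.2 in astrocytes. Its level was thus above both in every library, with log2 differences of 1.70 ± 0.05 (edgeR adjusted p = 2.67e-38) and 4.19 ± 0.10. Sox10, needed from precursor to myelin, stood at 344 ± 36.9 CPM in OPCs and 270 CPM in mature oligodendrocytes, a difference that was not called and whose sign turned with the scaling (log2 difference −0.31 with TMM and 0.35 without). In astrocytes Sox10 had 1 UMI against 1573 in OPCs.

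Several factors of the progenitor state were nearly absent from mature oligodendrocytes. Sox6 stood at 395, 370 and 375 CPM in OPCs against 2.92, 2.10 and 2.20 in mature oligodendrocytes (log2 difference 6.61 ± 0.13). Hes5, a Notch target, stood at 425, 386 and 363 CPM against 4.21, 2.10 and 2.20. Astrocytes shared part of this set. Hes5 was at 440 CPM there, with no call, while Sox6 was at 111 CPM, lower than in OPCs. Olig2, Sox6, Sox4 and Sox11 were among the listed factors higher in OPCs in all 3 comparisons. The ETS factors Etv4 and Etv5, which respond to growth factor signalling, stood at 123 and 160 CPM in OPCs and at 0.356 and 5.69 CPM in mature oligodendrocytes. In the other direction Nkx6-2, a factor of myelinating cells, stood at 1.07 CPM in OPCs and 571 CPM in mature oligodendrocytes, and Myrf, the switch to myelin transcription, at 31.8 against 303 CPM. On the TMM scale Myrf was 3.92 log2 units lower in OPCs than in mature oligodendrocytes, yet it had UMIs in 11.7% of OPCs and in 0.439% of astrocytes.

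**Figure D2:**
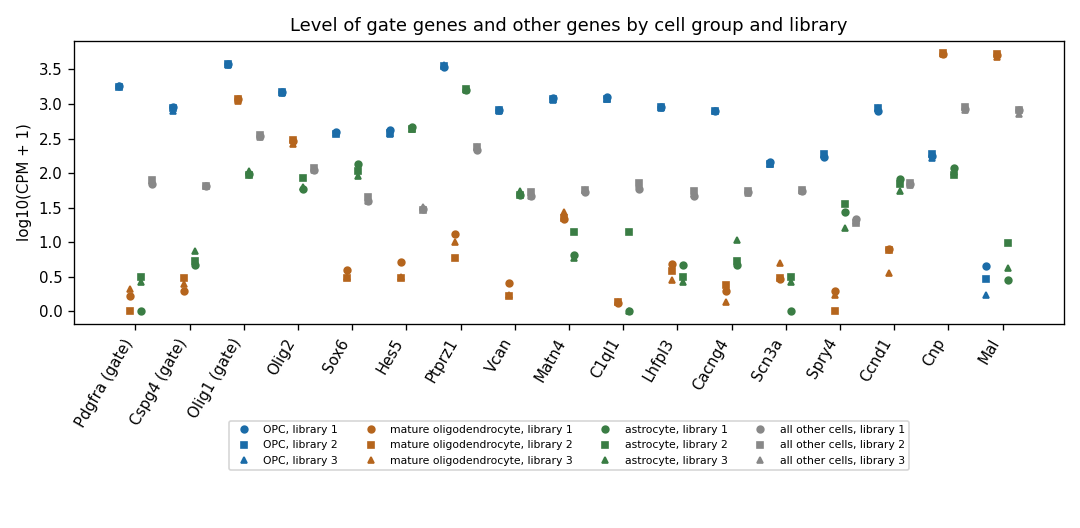
Level of each gene as log10(CPM + 1) (vertical axis) in OPCs, mature oligodendrocytes, astrocytes and all other cells, 1 point per library. The first 3 genes belong to the gate; of the others, Olig2, Vcan, C1ql1, Lhfpl3 and Cacng4 lie above every other group in OPCs, while Mal lies near 0 there and at 4848 CPM or more in mature oligodendrocytes.

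Transcripts of listed extracellular matrix genes were mostly higher in OPCs than in all other cells and than in mature oligodendrocytes. Of 16 listed matrix and proteoglycan genes, 12 were higher and 2 lower than in all other cells (median log2 difference 2.79), and of 14 tested, 12 were higher and 1 lower than in mature oligodendrocytes (6.47). Summed over the list, OPCs stood at 15346 ± 153 CPM and all other cells at 1601 ± 50.4 CPM. The phosphatase proteoglycan Ptprz1 stood at 3484, 3603 and 3678 CPM in OPCs, at 12.0, 4.90 and 9.18 in mature oligodendrocytes and at 1576, 1652 and 1615 in astrocytes. It was seen in 99.9% of OPCs, in 2.67% of mature oligodendrocytes and in 97.1% of astrocytes, at median depths of 3951, 4720.5 and 3410.5 UMIs per cell. Cspg5 (neuroglycan C) followed the same order, with means of 4861, 23.2 and 2767 CPM. The proteoglycans Bcan and Ncan, of perineuronal matrix, did not set OPCs apart from astrocytes. Bcan averaged 1583 CPM in OPCs and 1683 in astrocytes, and Ncan 422 and 339, with log2 differences of −0.37 ± 0.06 and 0.04 ± 0.08, neither called.

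Against astrocytes only 5 of 14 tested matrix genes were higher in OPCs and 3 lower (median 0.53). Those 5, namely Vcan, Tnr, Matn4, Spon1 and Chst11, were higher in all 3 comparisons. Versican (Vcan), a chondroitin sulfate proteoglycan, stood at 818, 833 and 802 CPM in OPCs and at 47.0, 48.2 and 54.6 in astrocytes. Tenascin-R (Tnr), which binds it, stood at 1037, 1149 and 1066 CPM against 1 UMI in all astrocytes (ratio 1727, counting interval 310 to 68212). Chst11, which sulfates chondroitin chains, was at 238 ± 1.61 CPM in OPCs and 33.9 CPM in astrocytes. The laminin chain Lama2 went the other way, with 3 UMIs in all OPCs and means of 12.1 and 58.9 CPM in mature oligodendrocytes and astrocytes.

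Adhesion and cell-surface genes were mostly higher in OPCs in all 3 comparisons. Of 16, 14 were higher and none lower than in all other cells, 12 were higher and 1 lower than in mature oligodendrocytes, and 14 were higher and 1 lower than in astrocytes (medians 2.30, 4.20 and 5.02). Higher each time were 12 of them: Cntn1, Cdh13, Pcdh15, Lrrc4c, Nlgn3, Opcml, Nxph1, Tmem132d, Lhfpl3, Dscam, Epn2 and C1ql1. The list was chosen with earlier results of these cells in view, so its direction is no independent evidence. Contactin 1 (Cntn1), an axon-glia adhesion molecule, stood at 1453, 1458 and 1420 CPM in OPCs, at 42.3 in mature oligodendrocytes and at 33.3 in astrocytes. C1ql1, a secreted synaptic organiser of the C1q family, stood at 1247, 1184 and 1198 CPM and had 3 UMIs in all mature oligodendrocytes. In astrocytes it had 6 UMIs, all of them in library 2. The tetraspan-like Lhfpl3 was at 900 ± 14.4 CPM in OPCs and under 4 CPM in every library of both other glia. Dscam, a homophilic adhesion protein of the immunoglobulin family, had 1166 UMIs in OPCs and none in astrocytes, so it was at least 135-fold higher in OPCs. Astrocytes likewise had no UMI of the sulfatase Sulf2, the engulfment-related Megf11, the focal adhesion gene Lims2 or the transcript 3632451O06Rik, for which OPCs were at least 314-fold, 158-fold, 121-fold and 165-fold higher.

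Genes of glutamate receptors were more often higher than lower in OPCs in all 3 comparisons. Of 20 listed genes, 10 were higher and 5 lower than in all other cells, which include inhibitory neurons and unlisted excitatory ones (median 0.78). Of 19 tested, 14 were higher and 1 lower than in mature oligodendrocytes (2.44), and 12 were higher and 2 lower than in astrocytes (1.50). The AMPA receptor subunit Gria2, which limits calcium entry, stood at 1116, 1135 and 1064 CPM in OPCs, 40.9 in mature oligodendrocytes and 1686 in astrocytes. It was the AMPA subunit seen in most OPCs (96.6%). Gria3 stood at 294, 275 and 304 CPM and Gria4 at 117, 111 and 126 CPM, and both were below 15 CPM in every library of both other glia. Gria1 was low, at 23.9 CPM in OPCs against 151 in all other cells (log2 difference −2.88 ± 0.10).

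The AMPA receptor auxiliary Cacng4 stood at 800, 784 and 785 CPM in OPCs, at 0.913 in mature oligodendrocytes and at 6.02 in astrocytes, and was seen in 92.7% of OPCs and in 0.411% and 2.09% of the others. Of NMDA receptor subunits, the modulatory Grin3a was present (262 ± 18.8 CPM) and higher in all 3 comparisons. The obligatory subunit Grin1 stood at 17.7 CPM, Grin2a at 2.37 CPM and Grin2b at 7.66 CPM, and all 3 were lower than in all other cells. The metabotropic receptor Grm5 stood at 162, 203 and 166 CPM in OPCs, 5.10 in mature oligodendrocytes and 11.0 in astrocytes. Grm3 was lowest in OPCs, at 3.61, 56.6 and 217 CPM in OPCs, mature oligodendrocytes and astrocytes, and was lower in OPCs in all 3 comparisons.

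GABA receptor genes did not share this pattern. Of 13, 11 of 12 tested were higher than in mature oligodendrocytes (median 3.32), but 1 was higher and 5 lower than in all other cells (−0.42), 3 of 10 tested were higher and 5 lower than in astrocytes (−0.92), and none was higher in all 3 comparisons. The alpha-2 subunit Gabra2 stood at 65.8, 60.3 and 50.3 CPM in OPCs, 2.23 in mature oligodendrocytes and 122 in astrocytes. The beta-1 subunit Gabrb1 and the gamma-1 subunit Gabrg1 were more abundant in astrocytes, at 666 and 252 CPM against 103 and 62.2 in OPCs. Gabbr1, of the metabotropic receptor, was seen in 63.8% of OPCs, 69.4% of mature oligodendrocytes and 62.4% of astrocytes and was called in none of the 3 comparisons.

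The transcript of a GABA-synthesising enzyme was also found. Gad1 belongs to the gate, which allows at most 2 UMIs of Slc17a7, Gad1 and Gad2 in a cell, so its level is a description and a low estimate. It stood at 47.9, 50.1 and 54.0 CPM in OPCs (80, 78 and 74 UMIs) and was seen in 18.7% ± 1.32 of them, while Gad2 had 2, 3 and 9 UMIs. There were 40.0, 26.0 and 8.22 Gad1 UMIs for each Gad2 UMI in the 3 libraries. In inhibitory neurons, taken as cells with at least 3 UMIs of both genes, the same ratio was 0.961, 0.954 and 0.920. Mature oligodendrocytes and astrocytes, which passed the same cap, had Gad1 at 3.89 to 4.55 CPM and at 2.19 to 8.27 CPM. Every OPC library thus lay above every library of both other glia for Gad1. OPCs were not alone in this. The cells with more Gpr17, described further on, had Gad1 at 43.8, 41.8 and 37.9 CPM in libraries 1, 2 and 3. It was seen in 18.4% of them, under the same cap. The cap on OPCs and the choice of inhibitory neurons both read these counts, so nothing is read from the ratios.

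Ion channel genes were mostly higher in OPCs than in mature oligodendrocytes and than in astrocytes. Of 22, 7 were higher and 3 lower than in all other cells (median 0.57), 17 of 21 tested were higher and 1 lower than in mature oligodendrocytes (3.70), and 15 of 20 tested were higher and 2 lower than in astrocytes (2.95). Kcnd2, an A-type potassium channel, stood at 191, 193 and 190 CPM in OPCs, 1.72 in mature oligodendrocytes and 18.2 in astrocytes, and its partner Kcnip3 at 511 ± 5.41 CPM against 4.85 and 74.7. Scn3a, a sodium channel subunit of immature neurons, stood at 145, 134 and 134 CPM in OPCs and at 2.70 and 1.28 CPM in the others. Kcnh8, a slowly gating potassium channel, stood at 38.3, 44.9 and 41.6 CPM and had 2 UMIs in mature oligodendrocytes and none in astrocytes. Those 4 genes and Kcnmb4, a beta subunit of calcium-gated potassium channels, were higher each time. The inward rectifier Kcnj10 was shared by the 3 glia, at 162, 205 and 152 CPM, and was not called against either. Kcna1, the channel of the axon and of mature oligodendrocytes, was lower in OPCs (37.4 against 253 CPM, log2 difference −3.40 ± 0.09).

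**Figure D3:**
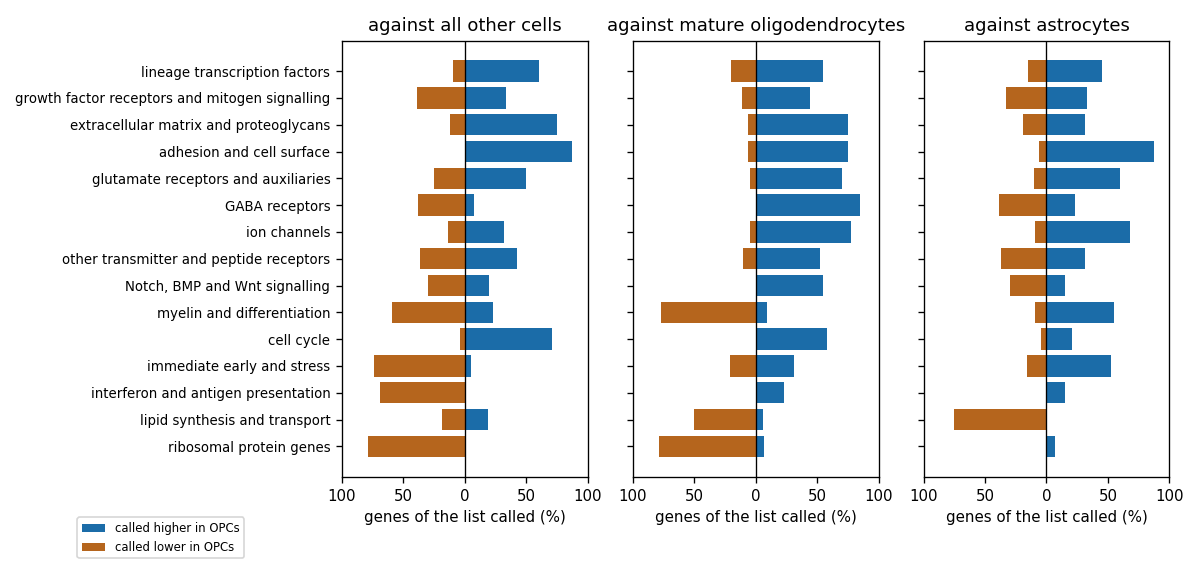
Percent of the genes of each list (horizontal axis) called higher in OPCs (right bars) or lower (left bars) against all other cells, mature oligodendrocytes and astrocytes, with genes not tested counted as not called. The adhesion list is mostly higher in all 3 panels, with 14, 12 and 14 of 16 genes, while the GABA receptor list is mostly higher only in the middle panel.

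Growth factor signalling genes, listed without the gate gene Pdgfra, were divided in direction. Of 18 listed genes, 6 were higher and 7 lower than in all other cells (median −0.19, or 0.02 without TMM), and 6 of 16 tested were higher and 6 lower than in astrocytes (−0.64), while 8 of 14 tested were higher and 2 lower than in mature oligodendrocytes (2.63). The Sprouty genes Spry1 and Spry4, which damp receptor tyrosine kinase signals, were higher each time. Spry4 stood at 169, 187 and 179 CPM in OPCs, 0.569 in mature oligodendrocytes and 25.4 in astrocytes. Fibroblast growth factor receptors divided by cell type. Fgfr1 averaged 87.3, 5.16 and 308 CPM in OPCs, mature oligodendrocytes and astrocytes, Fgfr2 averaged 0.943, 516 and 105 CPM and Fgfr3 22.6, 3.07 and 641 CPM. Fgfr2 was near 0 in OPCs and lower in all 3 comparisons. The neuregulin receptor Erbb3 was at 127 ± 14.5 CPM in OPCs and 141 in mature oligodendrocytes, with no call. The lysophosphatidic acid receptor Lpar1 had 3 UMIs in OPCs and 4745 in mature oligodendrocytes.

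Notch, BMP and Wnt genes were divided against all other cells, with 4 of 19 tested higher and 6 lower (7 higher and 5 lower without TMM), and 11 of 16 tested were higher than in mature oligodendrocytes with none lower (medians 0.55 and 2.52). Against astrocytes 3 of 17 were higher and 6 lower (−0.34). The Notch ligands Dll1 and Dll3 and the Wnt receptor Fzd9 were higher each time. Dll1 stood at 33.5, 52.6 and 51.8 CPM in OPCs and had no UMI in astrocytes (at least 24.1-fold higher), and Dll3 had none there either (at least 20.7-fold). Notch1 itself was at 185 CPM in OPCs and 193 in astrocytes, with no call. Of 18 tested receptors for other transmitters and peptides, 8 were higher and 7 lower than in all other cells (0.37), 10 of 14 tested were higher and 2 lower than in mature oligodendrocytes (3.40), and 6 of 15 tested were higher and 7 lower than in astrocytes (0.61). Higher each time were the nicotinic subunit Chrna4 (58.4 CPM), the nociceptin receptor Oprl1 (78.2 CPM), the ATP-gated P2rx7 (68.7 CPM) and Calcrl, the receptor of calcitonin gene-related peptide (209, 179 and 187 CPM, against 0.691 and 2.01 in mature oligodendrocytes and astrocytes). The orphan receptors Gpr37 and Gpr37l1 split between the glia. Gpr37 averaged 2.97, 973 and 61.4 CPM in OPCs, mature oligodendrocytes and astrocytes, and Gpr37l1 995, 10.1 and 2077 CPM.

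Myelin genes were low in OPCs as a list but not evenly. Of 22, 5 were higher and 13 lower than in all other cells (median −2.12), 2 were higher and 17 lower than in mature oligodendrocytes (−5.12), and 12 of 17 tested were higher and 2 lower than in astrocytes (1.77). Mog and Mag chose the mature cells and kept others out of OPCs, so the direction against mature cells follows in part from the gates. Cnp, an enzyme of the myelin sheath, stood at 174, 186 and 165 CPM in OPCs, at 5243, 5387 and 5222 in mature oligodendrocytes and at 118, 92.0 and 104 in astrocytes. The OPC libraries lay far below every mature library and above every astrocyte library, although the difference from astrocytes was not called (log2 difference 0.45 ± 0.12). Cnp was seen in 46.5% of OPCs and 31.0% of astrocytes. Genes of the sheath that come on late were at or near 0 in OPCs. Mal stood at 3.59, 1.93 and 0.729 CPM against 5118 in mature oligodendrocytes, Opalin at 0.871 against 1532 CPM and Ermn at 1.03 against 1678 CPM. Serpinb1a had no UMI in OPCs and 1746 in mature oligodendrocytes, which makes it at least 309-fold lower in OPCs.

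Some genes of the list belonged to OPCs as much as to later cells. The Src-family kinase Fyn, which acts at the start of myelination, stood at 265, 288 and 311 CPM in OPCs, 52.2 in mature oligodendrocytes and 69.5 in astrocytes. Itpr2, an endoplasmic calcium channel that names an early differentiating state, stood at 223, 186 and 215 CPM against 21.6 and 84.0. These 2 were higher in all 3 comparisons. Bcas1, a marker of newly forming oligodendrocytes, stood at 157, 156 and 155 CPM in OPCs, below mature oligodendrocytes (233 CPM) and far above astrocytes (3 UMIs in all). The galactolipid enzyme Ugt8a was at 134 CPM in OPCs and 983 CPM in mature oligodendrocytes, with 2 UMIs in astrocytes.

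The next step of the lineage was compared by raising the Gpr17 limit. A group of 527 cells with at least 5 UMIs of Gpr17, Enpp6 and Bmp4, called Gpr17-high here, differed from OPCs at only 48 of 10391 genes, of which 10 (0.0962%) were higher in OPCs and 38 (0.366%) lower. The largest called differences below Gpr17-high cells by the rule for named genes included Chn2 (−2.15), Mycl (−1.74), Epb41l2 (−1.69), Cnp (−1.42), Mbp (−1.34), Frmd4a (−1.32), Bcas1 (−1.31), Bfsp2 (−1.24) and Fyn (−1.22, all log2 differences). That rule asked for 1 direction in 3 of 3 libraries. Of the myelin list, 6 of 17 tested genes were lower in OPCs than in Gpr17-high cells. Of the genes higher in OPCs, Mki67 (2.06) and Top2a (1.95) belong to the cell cycle list, and Tpx2 (3.05) is a spindle gene. The microglial genes C1qa, C1qb, C1qc, Cx3cr1 and P2ry12 were also among those lower in OPCs, 6 of the 12 listed microglial markers in all. None of the 12 was called by DESeq2 or without the replicate block. Without cells holding at least 3 microglial UMIs 45 genes were called, and that removal left just 1 microglial marker to test, which was not called.

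Most Gpr17-high cells still carried Pdgfra, and those cells were nearly OPCs. Of the 527, 478 held at least 3 UMIs of Pdgfra and Cspg4, and just 3 genes differed between them and OPCs (in edgeR, with the limits above). In these 478 cells Enpp6 was seen in 1.01% and Bmp4 in 12.7%. A further 43 cells (10, 15 and 18 in the libraries) held at most 1 UMI of Pdgfra and Cspg4, and Enpp6 and Bmp4 were seen in 83.7% and 85.9% of them. The split by Pdgfra was made after the first counts were seen.

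OPCs differed from the 43 Pdgfra-low cells at 962 of 9249 genes, of which 616 (6.66%) were higher in OPCs and 346 (3.74%) lower, with a median over all genes of 0.14. Several precursor genes were at or near 0 in these cells and others kept part of their level. Spry4 had no UMI in them, which is at least 13.4-fold lower than in OPCs. Hes5 had 1 UMI, and Cspg5, at 4861 CPM in OPCs and 4412 CPM in Gpr17-high Pdgfra+ cells, stood at 58.6, 69.8 and 399 CPM. Ptprz1 kept part of its level, at 3588, 3645 and 794 CPM in the same order. Of the lists, 8 of 12 tested growth factor genes were higher in OPCs with none lower (median 2.59), and so were 7 of 10 tested GABA receptor genes (2.01) and 7 of 17 glutamate receptor genes (0.90).

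Genes of differentiation showed the reverse. Cnp averaged 175 CPM in OPCs, 237 in Gpr17-high Pdgfra+ cells, 2372 in Pdgfra-low cells and 5284 in mature oligodendrocytes, and no library of one group overlapped with the next. Fyn and Bcas1 peaked in the Pdgfra-low cells. Fyn averaged 288, 352, 3476 and 52.2 CPM over the 4 groups, and Bcas1 156, 241, 1526 and 233 CPM. Sox8 (239, 302, 813 and 151 CPM), Nkx2-2 (99.1, 111, 350 and 41.8 CPM) and Tnr (1084, 1298, 2398 and 2.41 CPM) had the same order of levels as Fyn. For each of these 3 the OPC value was lower than that of Pdgfra-low cells, with log2 differences of −1.76, −1.82 and −1.13, and 12 of 17 tested myelin genes were lower as well with none higher. Library 1 held 10 of the 43 cells, so single values there rest on few cells. Microglial markers were lower in OPCs in this comparison too, at 6 of 12, and their part in the result was not tested.

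**Figure D4:**
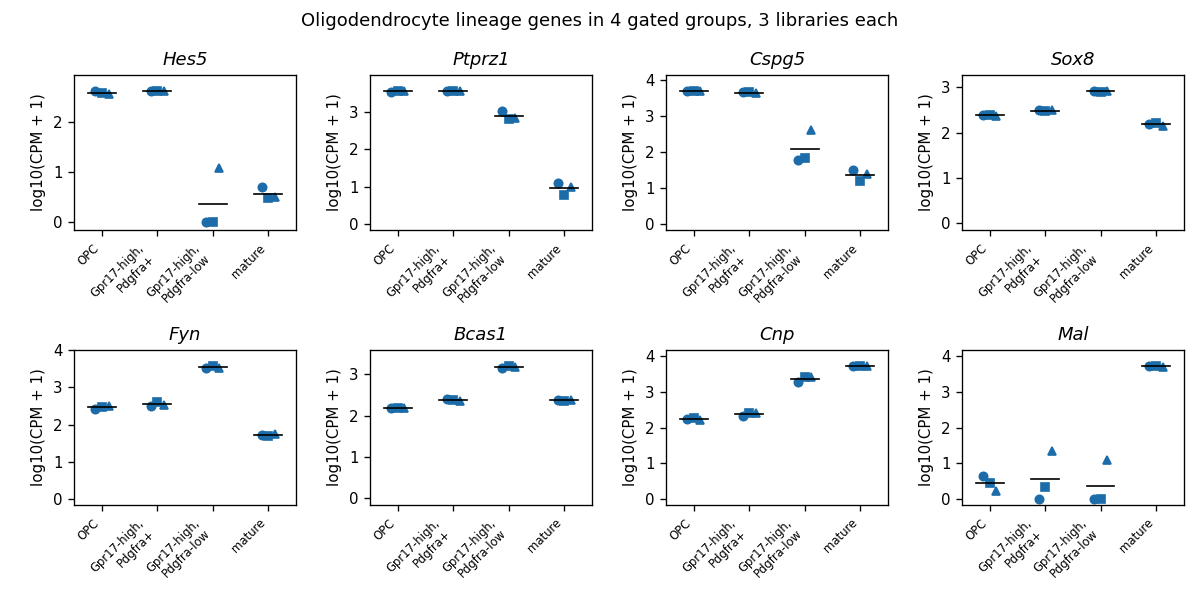
Level of 8 genes as log10(CPM + 1) in OPCs, Gpr17-high Pdgfra+ cells, Gpr17-high Pdgfra-low cells and mature oligodendrocytes. Circles, squares and triangles are libraries 1, 2 and 3, and lines are means of the plotted values; Hes5, Ptprz1 and Cspg5 drop at the Pdgfra-low cells, Fyn and Bcas1 peak there, and Mal is high in mature cells alone.

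Proliferation genes marked a small part of the OPCs. Of 24 listed cell cycle genes, 17 were higher and 1 lower than in all other cells (median 1.88), 14 of 18 tested were higher than in mature oligodendrocytes with none lower (2.21), and 5 of 10 tested were higher and 1 lower than in astrocytes (1.29). Cyclin D1 (Ccnd1), which drives entry into the cycle, was broad, at 805, 867 and 889 CPM and in 89.7% of OPCs, against 5.45 CPM in mature oligodendrocytes and 68.4 in astrocytes. Its level was 622 CPM in the Gpr17-high Pdgfra+ cells and 29.4 CPM in the Pdgfra-low cells, and of these only the Pdgfra-low cells were called against OPCs. Mitotic genes were rare. Top2a, which untangles replicated DNA, stood at 14.4, 20.5 and 52.5 CPM in OPCs, was seen in 2.12% of them, and had no UMI in mature oligodendrocytes or astrocytes.

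A cell was counted as cycling at 2 or more UMIs summed over 10 mitotic genes. This gave 21 of 1148 OPCs, or 0.930%, 2.57% and 2.13% in the 3 libraries (mean 1.88% ± 0.85). The share was 0.752% in all other cells, 0.572% in Gpr17-high cells, 0.188% in mature oligodendrocytes, and 0 of 460 astrocytes. After thinning each cell to 2000 UMIs, which left out 49 OPCs and 1058 other cells, the shares were 1.49% ± 0.46 in OPCs and 0.118% in all other cells, with 1, 1 and 0 cycling cells in the Gpr17-high, mature and astrocyte groups. OPCs lay above each of the 4 groups in every library. The exact two-sided permutation test gave p = 0.1 for each of the 4 comparisons (adjusted 0.1), which is the smallest value that 3 libraries against 3 allow. It takes the groups as independent, although they share libraries. Paired by library, an alternative chosen after seeing the data, the exact permutation test gave p = 0.25 each time (adjusted 0.25), the smallest that 3 pairs allow.

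**Figure D5:**
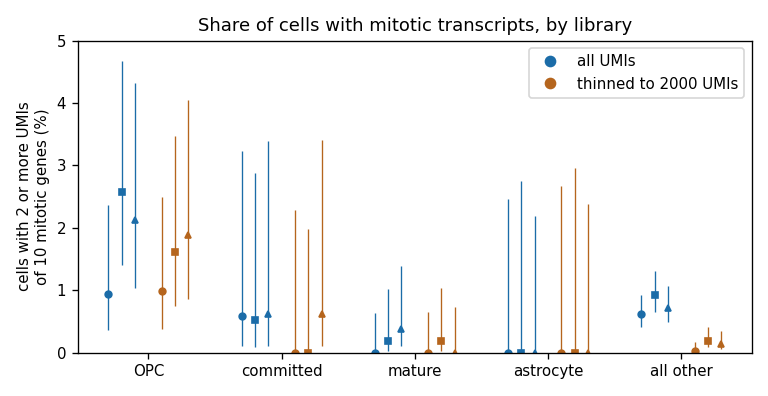
Percent of cells with 2 or more UMIs of 10 mitotic genes in 5 cell groups, per library (circles, squares and triangles for libraries 1, 2 and 3) with 95% Wilson intervals, from all UMIs and after thinning to 2000 UMIs per cell. After thinning, the OPC libraries lie between 0.980% and 1.88% and no library of another group lies above 0.617%.

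Immediate early genes were strongly present in all OPC libraries. Summed over 19 immediate early and stress genes, OPCs stood at 9349 ± 788 CPM and all other cells at 11493 ± 296 CPM. By gene, 1 was higher and 14 lower than in all other cells (median −1.78), while 10 of 16 tested were higher and 3 lower than in astrocytes (1.40). Against mature oligodendrocytes the list was divided, with 6 of 18 tested higher and 4 lower (0.47), or 10 higher and 3 lower without TMM. Jun stood at 3062, 3016 and 2612 CPM in OPCs, 588 in mature oligodendrocytes and 214 in astrocytes, and was called higher than in both. Fosb, at 950.2 ± 85.5 CPM, was higher in all 3 comparisons, and Fos, at 1112 CPM, was called higher only against astrocytes. The RNA-binding Zfp36 stood at 93.9, 8.99 and 29.2 CPM in OPCs and was lower in all 3 comparisons, in the same order over the libraries as the microglial markers. Without the OPCs that held 3 or more microglial UMIs, 5330 genes were called against all other cells in place of 5279.

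Lipid genes divided the glia. Of 16, 3 were higher and 3 lower than in all other cells (median −0.04), 1 was higher and 8 lower than in mature oligodendrocytes (−1.04), and none of 15 tested was higher and 12 were lower than in astrocytes (−2.14). Without TMM these became 3 higher and 5 lower than in mature oligodendrocytes and 2 higher and 10 lower than in astrocytes. The median against all other cells turned to 0.17. Apolipoprotein E (Apoe) stood at 8222, 8623 and 8380 CPM in OPCs, 3622 in mature oligodendrocytes and 16269 in astrocytes. The binding proteins Fabp7 and Fabp5 ran in opposite directions. Fabp7 averaged 1169, 8.72 and 480 CPM in OPCs, mature oligodendrocytes and astrocytes, and Fabp5 141, 1168 and 673 CPM. Scd2, which desaturates fatty acids, was at 637 CPM in OPCs and 2651 in mature oligodendrocytes. Ribosomal protein genes were lower than in all other cells (11 of 14, median −1.38) and than in mature oligodendrocytes (11 lower and 1 higher, −1.25), and 1 of 14 was called against astrocytes (0.28). Without TMM, 2 of the 14 were lower than in mature oligodendrocytes and 10 were lower than in all other cells. Of 13 interferon and antigen presentation genes none was higher and 9 were lower than in all other cells, and B2m, the light chain of class I molecules, stood at 165, 149 and 157 CPM against 485 CPM. Of the same list, 3 of 9 tested were higher than in mature oligodendrocytes and 2 of 7 higher than in astrocytes, with none lower in either (medians 0.73 and 0.00).

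Markers of other cells, apart from those of astrocytes, were mostly lower in OPCs than in all other cells, as far as the gate had not already set them. Against all other cells, 14 of 14 neuronal, 12 of 12 microglial, 11 of 11 endothelial, 11 of 11 pericyte and smooth muscle, 8 of 9 tested fibroblast and 12 of 13 mature oligodendrocyte markers were lower in OPCs and none was higher. All other cells hold these cell types, so the direction was largely set by the choice of groups. At least 3 UMIs of the endothelial list were found in 50.0% of OPCs and 49.0% of all other cells. For the neuronal list these shares were 20.5% and 29.0%, and for the microglial list 3.69% and 32.3%. The endothelial receptor Tek and the fibroblast proteoglycan Dcn, which is a gate gene, had no UMI in OPCs, nor had Gfap, the intermediate filament of astrocytes. The 11 astrocyte markers tested were lower than in astrocytes in every case, with 1 higher and 3 lower than in all other cells (median 0.13). Of 8 tested, 7 were higher than in mature oligodendrocytes (2.19). Summed over the list, OPCs stood at 1733 ± 52.1 CPM, all other cells at 1117 ± 90.7 CPM and astrocytes at 20694 CPM. Slc1a2, the main glutamate transporter of astrocytes, was present at 596, 549 and 584 CPM in OPCs, in 85.8% of cells, against 7210 CPM in astrocytes and 104 in mature oligodendrocytes. Snap25, a synaptic vesicle fusion protein, stood at 186 ± 15.4 CPM in OPCs, in 49.5% of cells, against 75.8 CPM in mature oligodendrocytes and 87.2 in astrocytes (30.5% and 24.4% of cells), with no call against either.

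Within the gate, 1002 OPCs held 1 to 4 UMIs of Gpr17, Enpp6 or Bmp4 and 146 held none. Of 9253 genes none was called between them by edgeR at a log2 difference of 0.5 (0%), with 477 at an unadjusted p under 0.05, and DESeq2 called none, with 40 at that level. The cells without these UMIs were thus not told apart at this depth, where their summed counts were 518290 UMIs. Genes that were high in Pdgfra-low cells were also tested in this contrast, with Fyn at 0.02 ± 0.13 and Bcas1 at 0.61 ± 0.19 (log2 difference, with over without), neither called.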

How the data were processed

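The authors deposited raw UMI counts per gene and cell from Cell Ranger v3.0.2 (Chromium 3' v3, mm10 with the viral barcodes added), with no normalization, and a list of their excitatory neurons. A cell had to show between 500 and 8000 genes, between 1000 and 60000 UMIs, and less than 20% of UMIs from mitochondrial genes. Gates used raw counts. For each library the UMIs of the gated cells were added up. The test was the quasi-likelihood F test of edgeR 4.0.16 in R 4.3.3, after TMM scaling and filterByExpr. The library was a block, since the cells compared share a library. The 15 gate genes stayed in library sizes and were left out of tests. DESeq2 1.42.0 was an alternative. CPM values divide by all UMIs of the group. Wilson intervals and exact permutation tests used scipy 1.17.1, and Scrublet in scanpy 1.11.5 marked 2.80% of 19472 cells and 12 OPCs, which were kept.

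The methods of the study tested single cells, which are not replicates, so sums per library were used in their place. The test was first tested on simulated data with known changes. Named genes were the 10 highest and 10 lowest called genes (5 and 5 for astrocytes) with at least 50 CPM and 1 direction in 3 of 3 libraries, plus members of gene lists. The gate, the lists and the tests were chosen with earlier results of these data known. Gene positions are from GENCODE M21 (GRCm38). Levels are from the 3' end and are tested within a gene only. List sums, the Gad1 to Gad2 ratios and remarks that set receptor subunits side by side span genes and are descriptions. A few genes are not reported here.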

Additional observations from a re-analysis of the deposited data

Results flagged for a closer look

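A signal appeared in a feature that no comparison above used, the summed viral barcode. At least 1 UMI of it was found in 37 of 1148 OPCs, or 3.72%, 2.06% and 3.95% in libraries 1, 2 and 3 (mean 3.24% ± 1.03, n = 3 libraries). This is above the 0.261% that 3 counts over these cells would give, which is why it is listed here. The share was 3.58% in mature oligodendrocytes and 2.31% in astrocytes, cells of similar depth, and 58.8% in the listed excitatory neurons, which were read more deeply. It was higher than in OPCs in Gpr17-high cells (5.05%), in the Pdgfra-low cells among them (13.0%, 6 of 43 cells) and in all other cells (6.38%). No OPC held 5 or more viral UMIs. An OPC share at the level of both other glia was not read as infection, and the source of these UMIs was not tested.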

How the results depend on the processing

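Of 670 values of named genes under the alternatives, 655 kept their direction and their side of the limits, 15 kept the direction but lost the call, all against Gpr17-high cells, and none reversed. Named genes were picked as the most extreme calls of the same counts, so these numbers say little about other genes. The count of genes called against Gpr17-high cells (48) was the least stable: 14 by DESeq2, 92 with no filter on low counts, 962 when only Pdgfra-low cells and 3 when only Pdgfra+ cells were kept, the last pair chosen after seeing the data. Without 1 library at a time it ran from 33 (without library 2) to 63 (without library 1), and the microglial markers called were 9, 1 and 1 of 12 without libraries 1, 2 and 3. Mbp and Frmd4a lost their calls there without library 2. Leaving out 1 library at a time gave 5162 to 5200 genes against all other cells, 4598 to 4670 against mature oligodendrocytes and 3206 to 3230 against astrocytes. Within OPCs each leave-out gave 1 gene (1 to 1), and no filter on low counts gave 9. The share of OPCs was 9.55% to 10.2% over the leave-outs and 9.04% with a gate of 5 Pdgfra and Cspg4 UMIs. The cycling share was 1.53% (without library 2) to 2.35% (without library 1) and was 6.32% at 1 mitotic UMI. On library sizes without TMM, also chosen after seeing the data, 5407, 56, 5234 and 3418 genes were called against all other, Gpr17-high, mature and astrocyte cells, of which 4839, 48, 3656 and 2894 were shared with the TMM fits. Fits without the replicate block called 5272, 37, 4519 and 3193 genes against all other, Gpr17-high, mature and astrocyte cells and 0 within OPCs. The cells compared come from the same libraries, so the pairing comes from the design. OPC depth limits rare transcripts: a gene with no UMI in an OPC sum may still be expressed.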
